A study of Mus musculus with 4 samples.

Results

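The 10 genes described here encode enzymes that oxidise fatty acids in mitochondria. Cpt1a and Cpt2 belong to the carnitine shuttle, Acadvl, Acadl, Acadm and Acads are the acyl-CoA dehydrogenases, Hadha, Hadhb and Acaa2 carry out the later steps of each cycle, and Etfa is a chain of the electron carrier that the dehydrogenases use. They were chosen by name, and their symbols were matched to NCBI Gene numbers, which made 10 of the 17723 gene numbers listed in at least 1 library. Because the set was proposed with the values of these same libraries known, its differences are given as descriptions with no test. All 10 were at 5 FPKM or more in all 4 libraries, so none was lost to the floor on low values; FPKM is the number of fragments scaled to transcript length and to the library total.

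Long-chain fatty acids cross the inner mitochondrial membrane as carnitine esters, and the carnitine palmitoyltransferase of the outer membrane sets the pace of their entry. Inside, each turn of beta-oxidation dehydrogenates, hydrates, dehydrogenates again and cleaves the acyl chain, which releases acetyl-CoA for the tricarboxylic acid cycle and passes electrons to the respiratory chain. Lymphocytes, natural killer (NK) cells among them, can burn fatty acids beside glucose and glutamine.

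The RNA came from splenic NK cells of C57BL/6J mice aged 6 to 8 weeks, sorted by whether they carried DNAM-1, an activating receptor encoded by Cd226. The 4 groups were DNAM-1+ and DNAM-1- NK cells from spleens with acute myeloid leukaemia (AML), taken on day 17 after transplantation of GFP+ leukaemia cells driven by the MLL-AF9 fusion, and DNAM-1+ and DNAM-1- NK cells from normal spleen, taken on day 0. The recipients were not irradiated, so they kept their own immune cells. Each group is 1 library, the labels give neither the number of mice behind it nor the markers of the NK gate, and no group has a replicate check. Sorted cells were sequenced in bulk, where fewer cells of a type and less RNA per cell cannot be told apart.

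Each library listed 15460 to 16161 genes at 8700000 to 8900000 fragments, a depth read back from the smallest steps of its FPKM values. The sort was visible in Cd226, at 36.1 FPKM in DNAM-1+ cells and 0.58 FPKM in DNAM-1- cells of AML spleen, and at 38.6 FPKM in DNAM-1+ cells and 0.45 FPKM in DNAM-1- cells of normal spleen. Ncr1, the NK cell receptor NKp46, was higher in DNAM-1+ cells of each spleen. It was at 597 FPKM in DNAM-1+ and 423 FPKM in DNAM-1- cells of AML spleen. In normal spleen it was at 573 FPKM in DNAM-1+ and 383 FPKM in DNAM-1- cells. Markers of other cells were present too, more of them in the DNAM-1- sorts. The summed level of 10 B cell markers was 248 FPKM in DNAM-1+ and 1041 FPKM in DNAM-1- cells of AML spleen, and 224 FPKM in DNAM-1+ and 1081 FPKM in DNAM-1- cells of normal spleen. Each of the 10 was lower in DNAM-1+ cells by 2-fold or more in either spleen. The sum over 11 monocyte markers was 641 FPKM in DNAM-1+ and 1111 FPKM in DNAM-1- cells of AML spleen, and 550 FPKM in DNAM-1+ and 1105 FPKM in DNAM-1- cells of normal spleen. Markers of T cells lay the other way, with a sum of 143 FPKM in DNAM-1+ and 80.6 FPKM in DNAM-1- cells of AML spleen, and 140.1 FPKM in DNAM-1+ and 77.8 FPKM in DNAM-1- cells of normal spleen. Of these 10 T cell markers, 8 were higher and 2 lower in DNAM-1+ cells in either spleen. The part of these cells in the differences below was not tested.

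Promoter sequences are shown for 4 of the genes, for members whose subset ratios were far from 0 and for the gene pair that shares a start region. They are the RefSeq windows on build GRCm38.p6, from 250 bases before to 50 after each gene's start, read 5′ to 3′ on the gene's strand. Windows were found for 9 of the 10 members; Acaa2 was not matched. Hadhb (chr5:30155003-30155302, + strand) and Hadha (chr5:30154931-30155230, - strand) lie head to head, with 272 bases between their starts, so their windows overlap by 228 bases. The capitals in Hadhb mark that overlap, and in Cpt1a (chr19:3323051-3323350, + strand) the nuclear receptor half-site TGACCT. Acadl (chr1:66863260-66863559, - strand) and Acads (chr5:115119297-115119596, - strand) hold no such half-site and stand in lower case.
Hadhb: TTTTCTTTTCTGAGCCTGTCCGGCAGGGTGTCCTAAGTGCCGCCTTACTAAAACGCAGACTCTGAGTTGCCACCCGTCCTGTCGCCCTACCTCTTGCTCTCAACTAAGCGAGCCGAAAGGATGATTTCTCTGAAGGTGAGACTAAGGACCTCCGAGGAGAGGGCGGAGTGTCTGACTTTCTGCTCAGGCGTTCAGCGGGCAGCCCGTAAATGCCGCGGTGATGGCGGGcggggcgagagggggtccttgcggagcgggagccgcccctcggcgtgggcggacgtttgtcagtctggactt
Acadl: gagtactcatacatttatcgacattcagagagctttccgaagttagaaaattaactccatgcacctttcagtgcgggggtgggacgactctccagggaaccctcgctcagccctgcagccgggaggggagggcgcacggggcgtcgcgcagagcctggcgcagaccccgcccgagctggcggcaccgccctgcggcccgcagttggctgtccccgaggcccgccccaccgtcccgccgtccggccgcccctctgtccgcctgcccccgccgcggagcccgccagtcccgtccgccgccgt
Acads: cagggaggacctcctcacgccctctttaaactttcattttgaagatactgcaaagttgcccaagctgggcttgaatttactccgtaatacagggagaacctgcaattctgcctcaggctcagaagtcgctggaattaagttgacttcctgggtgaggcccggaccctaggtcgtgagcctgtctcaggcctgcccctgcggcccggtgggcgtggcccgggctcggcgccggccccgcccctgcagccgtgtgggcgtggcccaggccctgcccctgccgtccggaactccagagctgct
Cpt1a: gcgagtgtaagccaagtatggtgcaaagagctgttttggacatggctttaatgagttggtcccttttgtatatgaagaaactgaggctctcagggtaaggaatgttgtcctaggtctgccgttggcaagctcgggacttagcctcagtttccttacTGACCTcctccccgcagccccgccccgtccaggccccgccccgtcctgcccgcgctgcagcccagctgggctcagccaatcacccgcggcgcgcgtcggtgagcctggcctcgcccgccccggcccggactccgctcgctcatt

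The half-site AGGTCA, searched on both strands, was in the windows of 3 of the 9 members, Cpt1a, Acadvl and Acadm, and in 16.3% of 32851 RefSeq promoter windows of the same length. A direct repeat of it with 1 base between the copies, the form that PPAR and RXR receptors bind, was in 0 of the 9 windows and in 0.0396% of all. The extended half-site TCAAGGTCA was in 0 of the 9 and in 0.423% of all, and it overlaps the shorter motif. These are letter matches in 300 bases and say nothing of binding.

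The members fell into 4 tiers of expression that held in every library, as the plot of levels by library shows, with Hadha at 7.77 to 7.92 times the level of Cpt2. Averaged over the 4 libraries, Hadha was at 44.3 FPKM, Acadl at 40.5 FPKM, Cpt1a at 34.0 FPKM, Hadhb at 32.7 FPKM and Acadvl at 30.4 FPKM. Neighbours in this order had overlapping ranges over the libraries, and so are not set apart. Etfa, with a mean of 22.9 FPKM, and Acadm, with 21.6 FPKM, followed below a gap, overlapped each other and stayed under every value of Acadvl. Acaa2 at 14.2 FPKM and Acads at 14.1 FPKM formed the next overlapping pair, and Cpt2 at 5.64 FPKM was lowest, below every value of the others. FPKM is per length, so these levels can be set beside each other.

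**Figure D1:**
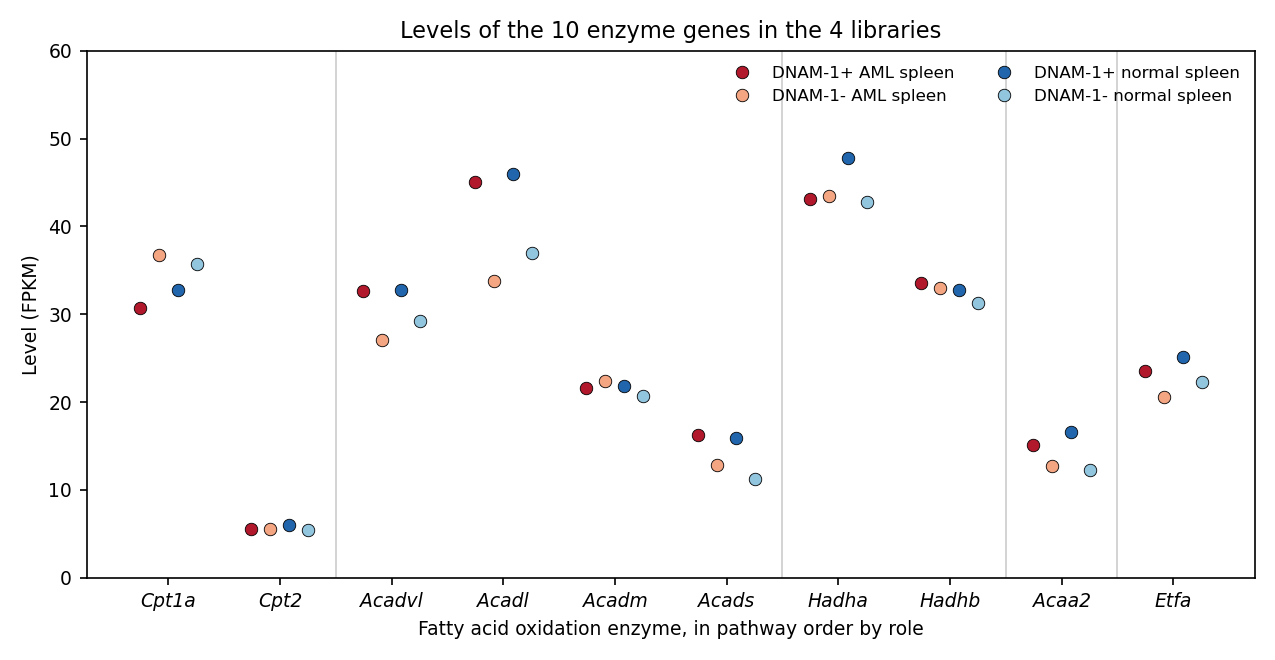
Level of each of the 10 enzyme genes (horizontal axis) in FPKM (vertical axis, linear), 1 point per library: DNAM-1+ and DNAM-1- cells of AML spleen, then DNAM-1+ and DNAM-1- cells of normal spleen. The 4 tiers do not overlap, while neighbours in order of mean level within a tier do. In the top tier every value of Hadha lies above those of Cpt1a, Hadhb and Acadvl. Acadl, with 45.0 and 46.0 FPKM in the DNAM-1+ libraries against 33.8 and 37.0 FPKM in the DNAM-1- libraries, separates by subset. So do Acadvl, Acads, Acaa2 and Etfa in the same direction, and Cpt1a in the other.

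Cpt1a, the liver-type carnitine palmitoyltransferase of the outer membrane, was the one member lower in DNAM-1+ cells in both spleens. It was at 30.7 FPKM in DNAM-1+ and 36.7 FPKM in DNAM-1- cells of AML spleen, and at 32.8 FPKM in DNAM-1+ and 35.7 FPKM in DNAM-1- cells of normal spleen. Both DNAM-1+ values lay below both DNAM-1- values. The log2 ratio of DNAM-1+ to DNAM-1- cells, taken after adding 1 FPKM to each value as in all ratios here, was -0.25 in AML spleen (95% counting interval -0.41 to -0.10) and -0.12 in normal spleen (-0.27 to 0.03). Such an interval covers the counting of fragments alone, not the spread between animals.

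Cpt2, the inner-membrane transferase that turns acylcarnitines back to acyl-CoA, was at 5.51 FPKM in DNAM-1+ and 5.59 FPKM in DNAM-1- cells of AML spleen, and at 6.04 FPKM in DNAM-1+ and 5.41 FPKM in DNAM-1- cells of normal spleen. The subsets were not ordered alike in the spleens, with log2 ratios of -0.02 in AML spleen and 0.14 in normal spleen. An estimated 91.3 to 104 fragments per library lay behind these values, the fewest of any member, and the counting interval spanned 0 in both spleens. The ratio of Cpt1a to Cpt2 was 5.57 for DNAM-1+ against 6.57 for DNAM-1- cells of AML spleen, and 5.43 for DNAM-1+ against 6.60 for DNAM-1- cells of normal spleen.

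Acyl-CoA dehydrogenases take the first step of each cycle and are graded by the chain length they accept. Acadl, the long-chain enzyme, was at 45.0 FPKM in DNAM-1+ and 33.8 FPKM in DNAM-1- cells of AML spleen, and at 46.0 FPKM in DNAM-1+ and 37.0 FPKM in DNAM-1- cells of normal spleen. It was 1.33-fold higher in DNAM-1+ cells of AML spleen and 1.24-fold higher in those of normal spleen. On the log2 scale the ratios were 0.40 (0.21 to 0.60) in AML spleen and 0.31 (0.12 to 0.50) in normal spleen, and Acadl was the member whose counting interval lay above 0 in both. Of 9074 genes, 5.01% had ratios in both spleens of at least Acadl's lower ratio, the 0.31 of normal spleen.

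Acads, the short-chain enzyme, was at 16.2 FPKM in DNAM-1+ and 12.9 FPKM in DNAM-1- cells of AML spleen, and at 15.9 FPKM in DNAM-1+ and 11.2 FPKM in DNAM-1- cells of normal spleen. Its values in DNAM-1+ cells lay above both of its values in DNAM-1- cells. The fold was 1.26 in AML spleen and 1.42 in normal spleen, where the log2 ratio of 0.47 (0.13 to 0.81) was the highest of any member in any of the 4 contrasts. In AML spleen the log2 ratio of 0.31, the lower of the pair, had a counting interval from -0.02 to 0.64. A ratio of at least that size in both spleens was found for 4.93% of all genes.

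Acadvl, the very-long-chain enzyme bound to the inner membrane, was at 32.6 FPKM in DNAM-1+ and 27.1 FPKM in DNAM-1- cells of AML spleen, and at 32.8 FPKM in DNAM-1+ and 29.2 FPKM in DNAM-1- cells of normal spleen. The log2 ratio was 0.26 (0.08 to 0.44) in AML spleen and 0.16 (-0.01 to 0.33) in normal spleen, again with both DNAM-1+ values on top. Acadm, the medium-chain enzyme, was at 21.6 FPKM in DNAM-1+ and 22.4 FPKM in DNAM-1- cells of AML spleen, and at 21.8 FPKM in DNAM-1+ and 20.7 FPKM in DNAM-1- cells of normal spleen. Its log2 ratios of -0.05 in AML spleen and 0.07 in normal spleen pointed opposite ways. Acadl was 2.08 times the level of Acadm in DNAM-1+ and 1.51 times in DNAM-1- cells of AML spleen, and 2.11 times in DNAM-1+ and 1.79 times in DNAM-1- cells of normal spleen.

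Hadha and Hadhb encode the alpha and beta chains of the mitochondrial trifunctional protein, which hydrates, dehydrogenates and cleaves long-chain acyl-CoA. Hadha was at 43.1 FPKM in DNAM-1+ and 43.45 FPKM in DNAM-1- cells of AML spleen, and at 47.8 FPKM in DNAM-1+ and 42.8 FPKM in DNAM-1- cells of normal spleen. The value of DNAM-1+ cells from normal spleen stood above the other three, and the log2 ratio of the subsets there was 0.16 (0.02 to 0.29), against -0.01 (-0.15 to 0.13) in AML spleen. Hadhb was at 33.6 FPKM in DNAM-1+ and 33.0 FPKM in DNAM-1- cells of AML spleen, and at 32.8 FPKM in DNAM-1+ and 31.3 FPKM in DNAM-1- cells of normal spleen. It was the steadiest member, with its highest value 1.07 times its lowest. The pair that starts from the overlapping windows shown above was not at equal levels: Hadha was 1.28 times Hadhb in DNAM-1+ and 1.32 times in DNAM-1- cells of AML spleen, and 1.46 times in DNAM-1+ and 1.37 times in DNAM-1- cells of normal spleen.

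Acaa2, the thiolase that cleaves shorter acyl chains in the matrix, was at 15.1 FPKM in DNAM-1+ and 12.7 FPKM in DNAM-1- cells of AML spleen, and at 16.6 FPKM in DNAM-1+ and 12.25 FPKM in DNAM-1- cells of normal spleen. Both DNAM-1+ values were above both DNAM-1- values, by 1.19-fold in AML spleen and 1.36-fold in normal spleen. The counting interval of the log2 ratio lay above 0 in normal spleen (0.41, interval 0.08 to 0.74) and spanned 0 in AML spleen (0.23, interval -0.11 to 0.57).

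Etfa, the alpha chain of the electron transfer flavoprotein, was at 23.6 FPKM in DNAM-1+ and 20.6 FPKM in DNAM-1- cells of AML spleen, and at 25.2 FPKM in DNAM-1+ and 22.3 FPKM in DNAM-1- cells of normal spleen. Its log2 ratios of 0.19 in AML spleen and 0.17 in normal spleen were nearly equal, and both had counting intervals that spanned 0. Etfb, which encodes the partner chain and is no member, was at 2.90 times the level of Etfa in DNAM-1+ and 3.46 times in DNAM-1- cells of AML spleen, and at 2.98 times in DNAM-1+ and 3.29 times in DNAM-1- cells of normal spleen.

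**Figure D2:**
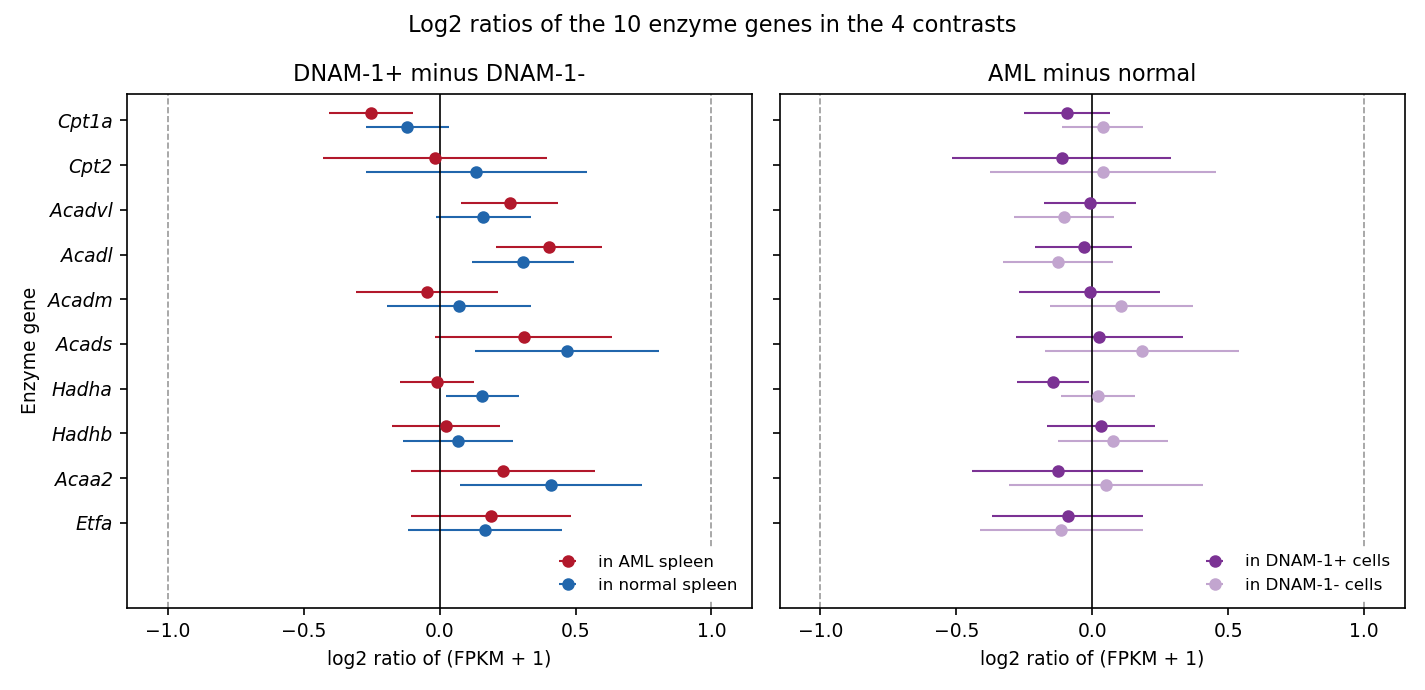
Log2 ratios of (FPKM + 1) for the 10 enzyme genes; points are single contrasts of 2 libraries, bars their 95% counting intervals and dashed lines a 2-fold change. Left, DNAM-1+ minus DNAM-1- cells in AML and in normal spleen, where points run from -0.25 to 0.47; right, AML minus normal spleen for DNAM-1+ cells and for DNAM-1- cells, where they run from -0.15 to 0.18.

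In AML spleen 6 were above 0 and 4 below, with a median log2 ratio of 0.11 beside 0.01 over all 8839 genes at 5 FPKM or more, of which 52.8% were above 0. In normal spleen 9 were above 0 and 1 below, with a median of 0.16 beside 0.01 over 8915 genes, of which 52.0% were above 0. The count in AML spleen is thus near the share of all genes. No member changed 2-fold: the count was 0 of 10 in AML spleen, where 4.08% of all genes did so in either direction, and 0 of 10 in normal spleen, where 5.25% did. At shares that low, 0 of 10 is near the background. Counting intervals left out 0 for 2 higher members and 1 lower member in AML spleen, beside 12.6% of all genes with a coding length higher and 11.8% lower. They did so for 4 higher and 0 lower members in normal spleen, beside 14.2% of such genes higher and 13.8% lower. Because the members were proposed with these values known, nothing is read from the counts. The summed level of the 10 was 267.1 FPKM in DNAM-1+ and 248.2 FPKM in DNAM-1- cells of AML spleen, and 277.8 FPKM in DNAM-1+ and 247.9 FPKM in DNAM-1- cells of normal spleen.

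Both DNAM-1+ libraries were above both DNAM-1- libraries for 5 members, Acadvl, Acadl, Acads, Acaa2 and Etfa, a pattern that 28.5% of all 9074 genes showed. Both were below for 1 member, Cpt1a, a pattern of 25.2% of all genes. Of the rest, Hadhb was higher in DNAM-1+ cells of each spleen with overlapping groups, and Cpt2, Acadm and Hadha had ratios of opposite sign in the spleens. The difference between the spleens in the subset ratio, AML minus normal, ran from -0.18 for Acaa2 to 0.10 for Acadvl and Acadl, and lay within its counting interval for all 10 members. Among the sorted cells' own markers, the summed level of 10 NK markers was 7894 FPKM in DNAM-1+ and 7775 FPKM in DNAM-1- cells of AML spleen, and 7557 FPKM in DNAM-1+ and 6637 FPKM in DNAM-1- cells of normal spleen. Of these 10 NK markers, 5 were higher and 5 lower in DNAM-1+ cells of AML spleen. In normal spleen 7 were higher and 3 lower. Summed T cell markers were higher in DNAM-1+ cells as given above. Their part in the member ratios was not tested.

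**Figure D3:**
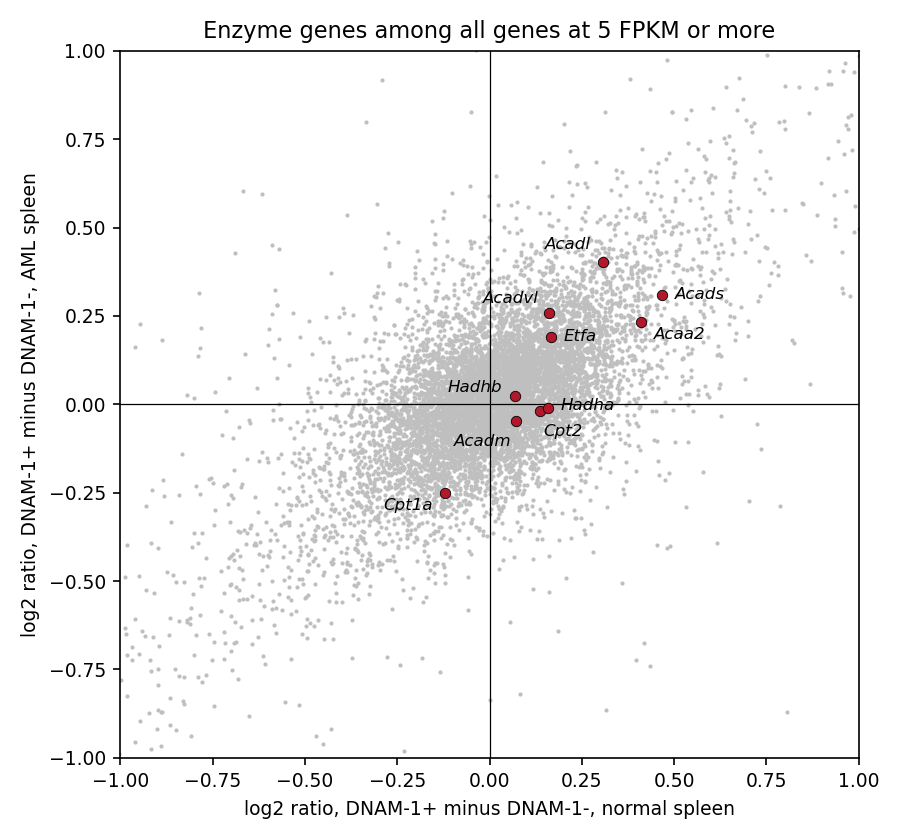
Log2 ratio of DNAM-1+ to DNAM-1- cells in AML spleen (vertical axis) against the same in normal spleen (horizontal axis), 1 point per gene at 5 FPKM or more, enzyme genes in red. The 537 of 9074 genes beyond 1 on either axis are not drawn; Acadl, Acads and Acaa2 lie farthest to the upper right and Cpt1a to the lower left.

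The members differed less between spleens than between subsets. Their median absolute log2 ratio of AML to normal spleen was 0.06 in DNAM-1+ cells and 0.09 in DNAM-1- cells, and that of DNAM-1+ to DNAM-1- cells was 0.21 in AML spleen and 0.16 in normal spleen. Over all genes the same medians were 0.10 for DNAM-1+ cells and 0.09 for DNAM-1- cells between spleens, and 0.13 in AML and 0.15 in normal spleen between subsets. In DNAM-1+ cells the log2 ratio of AML to normal spleen ran from -0.15 for Hadha to 0.03 for Acads and Hadhb, with 2 members above 0 and 8 below and a median of -0.06 beside 0.01 over 8682 genes, of which 52.5% were above 0. Hadha, at 43.1 FPKM in AML and 47.8 FPKM in normal spleen, was the single member whose counting interval left out 0 (-0.28 to -0.01), beside 6.73% of all genes with a coding length higher and 8.18% lower. In DNAM-1- cells the ratios ran from -0.13 for Acadl to 0.18 for Acads, with 7 members above 0 and 3 below and a median of 0.04 beside -0.00 over 8808 genes, of which 49.5% were above 0. The counting interval of each member spanned 0, while it lay above 0 for 5.13% and below 0 for 6.0% of all genes with a coding length. Acads was at 12.9 FPKM in DNAM-1- cells of AML spleen and 11.2 FPKM in those of normal spleen.

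No member reached 2-fold between the spleens: the count was 0 of 10 in DNAM-1+ cells, where 0.657% of all genes did, and 0 of 10 in DNAM-1- cells, where 0.59% did. Among protein-coding genes alone, as the members are, these shares were 0.168% for DNAM-1+ cells and 0.225% for DNAM-1- cells. Both AML libraries were above both normal libraries for 1 member, Hadhb, beside 15.1% of all genes, and both below for 0 members, beside 13.8% of all genes. Acads and Hadhb had AML ratios above 0 in both subsets, Acadvl, Acadl and Etfa below 0 in both, and the other five changed sign between subsets. The summed level of the members in AML spleen was 0.962 times that in normal spleen for DNAM-1+ cells and 1.00 times for DNAM-1- cells. The AML and the subset contrasts use the same 4 libraries and so are not independent of each other.

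Acads had the widest range of the members, 0.49 on the log2 scale, and the genes closest to its pattern were found by the Euclidean distance between log2 profiles centred on their mean over the 4 libraries, among 8507 protein-coding genes. The nearest was Tecpr1, whose protein acts in autophagosome maturation, at a distance of 0.0195. It was at 62.5 FPKM in DNAM-1+ and 49.5 FPKM in DNAM-1- cells of AML spleen, and at 60.5 FPKM in DNAM-1+ and 43.3 FPKM in DNAM-1- cells of normal spleen. Dynll2, a dynein light chain, followed at 0.0224, then Gnpda2, a glucosamine-6-phosphate deaminase, at 0.0311, Abhd2, a lipid hydrolase, at 0.0380 and Itgb1, the integrin beta 1 chain, at 0.0418. The nearest member, Acaa2, stood at rank 208 with a distance of 0.159, and Acadl at rank 675 with 0.226. With 4 libraries many genes lie close to any pattern.

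Around the members, 138 further genes of lipid and energy metabolism were followed in 11 lists, of which 134 were listed in some library and 108 reached 5 FPKM. They were tested with limma on log2(FPKM + 1), subset and spleen as additive terms over all 4 libraries, with 1 residual degree of freedom and p-values adjusted by Benjamini-Hochberg over all genes. For the subset term, limma called 9 of the 108 higher and 8 lower in DNAM-1+ cells, beside 7.35% of all genes higher and 8.38% lower, so both counts are near the background. For the spleen term it called 0 higher and 0 lower in AML, beside 0.0661% and 0.287% of all genes, with 6 higher and 4 lower at an unadjusted p under 0.05. Each of the 17 called genes had the same sign in both spleens. The fit counts a difference in subset ratio between the spleens as error, so this agreement is built into the calls. A log2 ratio of a tested gene here is the mean over both spleens, and the lists were drawn up with earlier results of these data known.

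Of the genes nearest to the members, 11 other mitochondrial beta-oxidation enzymes gave 0 calls in either direction, with median log2 ratios of DNAM-1+ to DNAM-1- cells of -0.00 in AML and 0.04 in normal spleen. The highest of them was Etfb, at 68.3 FPKM in DNAM-1+ and 71.2 FPKM in DNAM-1- cells of AML spleen, and at 74.9 FPKM in DNAM-1+ and 73.5 FPKM in DNAM-1- cells of normal spleen. In the carnitine shuttle and acyl-CoA synthetase list 1 of 7 rose and 1 fell. Crot, the peroxisomal carnitine octanoyltransferase, rose in DNAM-1+ cells with a mean log2 ratio of 0.40 ± 0.07 (SE; limma adjusted p = 0.0106), at 24.7 FPKM in DNAM-1+ and 18.45 FPKM in DNAM-1- cells of AML spleen and 26.1 FPKM in DNAM-1+ and 19.5 FPKM in DNAM-1- cells of normal spleen. Acsl1, which activates long-chain fatty acids, fell by 0.85 ± 0.21 (limma adjusted p = 0.0399), at 2.44 FPKM in DNAM-1+ and 4.96 FPKM in DNAM-1- cells of AML spleen and 2.30 FPKM in DNAM-1+ and 5.15 FPKM in DNAM-1- cells of normal spleen. Acsl5, the synthetase with the highest level, was not called (limma adjusted p = 0.0815), at 52.1 FPKM in DNAM-1+ and 44.9 FPKM in DNAM-1- cells of AML spleen and 53.8 FPKM in DNAM-1+ and 47.0 FPKM in DNAM-1- cells of normal spleen.

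Genes chosen after their values were seen place Cpt1a among its isoforms. Cpt1b, the muscle form, was at 0.69 FPKM in DNAM-1+ and 1.99 FPKM in DNAM-1- cells of AML spleen, and at 0.98 FPKM in DNAM-1+ and 0.50 FPKM in DNAM-1- cells of normal spleen. Cpt1c, the brain form, was listed at 0.04 FPKM in DNAM-1- cells of AML spleen and at 0 in the other three libraries. Ppara, the receptor that drives these enzymes in mouse liver, was at 0.02 FPKM in DNAM-1- cells of AML spleen. It was at 0.04 FPKM in DNAM-1+ cells of normal spleen, with 0 in the remaining libraries. Ppard, another PPAR receptor gene, was at 12.6 FPKM in DNAM-1+ and 15.3 FPKM in DNAM-1- cells of AML spleen. In normal spleen Ppard was at 13.1 FPKM in DNAM-1+ and 13.6 FPKM in DNAM-1- cells, and it was not called (limma adjusted p = 0.282).

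The lowest subset ratios among the 108 tested genes were those of Fabp4, Pparg, Scd1 and Cd36. Fabp4 and Cd36 share a list, and the lists of Pparg and Scd1 also held higher calls, given below. Each of these lists held tested genes that were not called. Scd1, the stearoyl-CoA desaturase, was at 9.10 FPKM in DNAM-1+ and 41.96 FPKM in DNAM-1- cells of AML spleen, and at 8.76 FPKM in DNAM-1+ and 45.0 FPKM in DNAM-1- cells of normal spleen, a mean log2 ratio of -2.16 ± 0.07 (limma adjusted p = 2.53e-05). Fabp4, a fatty acid binding protein of macrophages and fat cells, was at 0.53 FPKM in DNAM-1+ and 20.1 FPKM in DNAM-1- cells of AML spleen, and at 1.22 FPKM in DNAM-1+ and 17.4 FPKM in DNAM-1- cells of normal spleen (limma adjusted p = 0.000162). Cd36, a fatty acid translocase, was at 1.17 FPKM in DNAM-1+ and 7.66 FPKM in DNAM-1- cells of AML spleen, and at 0.58 FPKM in DNAM-1+ and 5.87 FPKM in DNAM-1- cells of normal spleen. It had a mean log2 ratio of -2.06 ± 0.26 (limma adjusted p = 0.00376), which made 2 calls, both lower, among the 3 tested uptake genes. Pparg, the lipid-sensing nuclear receptor, was at 0.57 FPKM in DNAM-1+ and 6.86 FPKM in DNAM-1- cells of AML spleen, and at 0.61 FPKM in DNAM-1+ and 7.92 FPKM in DNAM-1- cells of normal spleen (limma adjusted p = 0.00242). Among 10 fatty acid synthesis genes Scd1 was the 1 lower call. Among 7 lipolysis and droplet genes 2 fell, Plin2, which coats lipid droplets, by 0.66 ± 0.08 (limma adjusted p = 0.00268) and Lipe, the hormone-sensitive lipase, by 0.68 ± 0.14 (limma adjusted p = 0.0252). Pnpla2, the adipose triglyceride lipase and the highest of that list, was not called, at 50.7 FPKM in DNAM-1+ and 47.6 FPKM in DNAM-1- cells of AML spleen and 47.4 FPKM in DNAM-1+ and 47.5 FPKM in DNAM-1- cells of normal spleen.

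Summed markers of several other cell types were also lower in DNAM-1+ cells. The sum of T cell markers was higher, as given above, and so was that of leukaemia and progenitor markers. Beside the B cell and monocyte sums given above, 12 of 12 red pulp macrophage markers were lower in DNAM-1+ cells in either spleen, with sums of 79.5 FPKM in DNAM-1+ and 349.8 FPKM in DNAM-1- cells of AML spleen, and 71.2 FPKM in DNAM-1+ and 437 FPKM in DNAM-1- cells of normal spleen. Plasma cell markers summed to 80.2 FPKM in DNAM-1+ and 322 FPKM in DNAM-1- cells of AML spleen, and to 73.9 FPKM in DNAM-1+ and 213 FPKM in DNAM-1- cells of normal spleen, with Tnfrsf17 at 0 in DNAM-1+ cells of normal spleen. Dendritic cell markers summed to 410.2 FPKM in DNAM-1+ and 805 FPKM in DNAM-1- cells of AML spleen, and to 378 FPKM in DNAM-1+ and 835 FPKM in DNAM-1- cells of normal spleen. Of these 9 markers, 3 were higher and 6 lower in DNAM-1+ cells of AML spleen. In normal spleen 2 were higher and 7 lower. Their median log2 ratios were -0.28 in AML and -0.41 in normal spleen. Neutrophil markers had median log2 ratios of -0.31 in AML and -0.21 in normal spleen. Leukaemia and progenitor markers summed to 41.3 FPKM in DNAM-1+ and 24.5 FPKM in DNAM-1- cells of AML spleen. In normal spleen their sums were 36.05 FPKM in DNAM-1+ and 25.3 FPKM in DNAM-1- cells. Of these 8 markers, 5 were higher and 2 lower in DNAM-1+ cells in either spleen. Their median log2 ratios were nearer 0, at 0.07 in AML and 0.05 in normal spleen. Erythroid markers summed to 15.3 to 25.02 FPKM in the 4 libraries. The part of any of these cells in the fall of Scd1, Fabp4, Cd36, Pparg, Plin2 and Lipe was not tested.

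Other lists held calls in both directions or few. Fatty acid synthesis gave 2 of 10 higher, Fasn, the fatty acid synthase, at 0.34 ± 0.07 (limma adjusted p = 0.0249) and Elovl6, a fatty acid elongase, at 0.36 ± 0.08 (limma adjusted p = 0.0357), beside the fall of Scd1. The regulators gave 1 of 12 higher, Rxra, the partner of PPAR receptors, at 0.44 ± 0.07 (limma adjusted p = 0.0107), and 1 lower, Pparg. The 20 tricarboxylic acid cycle genes gave 1 higher, Idh3a, an isocitrate dehydrogenase chain, at 0.30 ± 0.08 (limma adjusted p = 0.0432), and the 13 genes of mitochondrial content gave 1 higher, Vdac1, the outer membrane channel, at 0.41 ± 0.08 (limma adjusted p = 0.0177). Ketone body metabolism gave 0 of 2.

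Glycolysis had 3 of 14 genes higher in DNAM-1+ cells and 0 lower. Ldha, the lactate dehydrogenase A chain, was at 171.7 FPKM in DNAM-1+ and 118 FPKM in DNAM-1- cells of AML spleen, and at 170.0 FPKM in DNAM-1+ and 137 FPKM in DNAM-1- cells of normal spleen (limma adjusted p = 0.013). Hk1, a hexokinase, rose by 0.29 ± 0.06 (limma adjusted p = 0.0264), and Slc2a3, a glucose transporter, by 0.28 ± 0.07 (limma adjusted p = 0.0368). Over the 14 genes the median log2 ratio was 0.14 in AML spleen and 0.09 in normal spleen. With no mean-variance trend in the fit, Fasn, Elovl6, Idh3a, Vdac1, Hk1, Ldha and Slc2a3 were among the genes no longer called, and with no floor on low values 0 of the 17 calls was left.

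**Figure D4:**
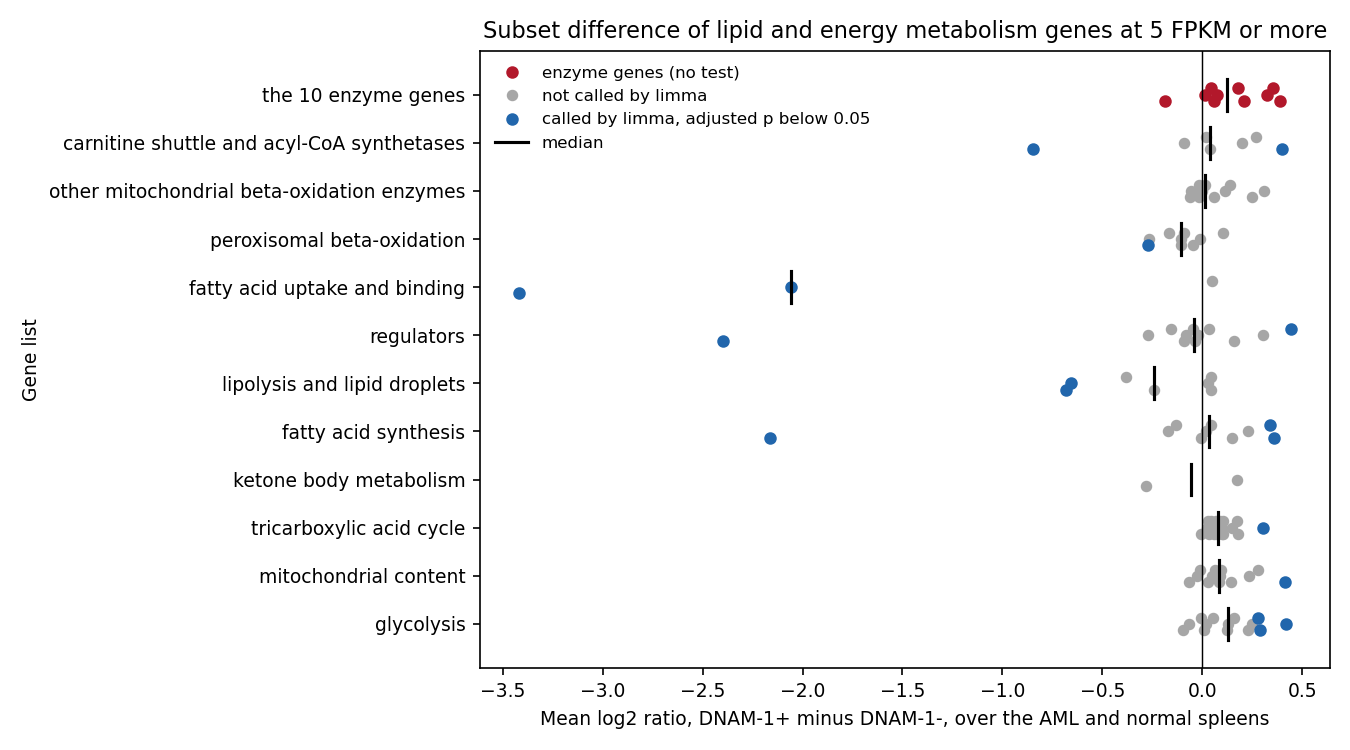
Mean log2 ratio of DNAM-1+ to DNAM-1- cells over the AML and normal spleens (horizontal axis) for the 10 enzyme genes and for each tested gene of the 11 lists (vertical axis); colour marks limma calls and the vertical stroke the median. The enzyme genes carry no test and lie between Cpt1a, at -0.19, and Acads, at 0.39, while Fabp4, Pparg, Scd1 and Cd36 lie 2.06 or more below 0 on the log2 scale.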

How the data were processed

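RNA of 4 sorted NK cell libraries, 1 per group, was sequenced on BGISEQ-500, per the labels' protocols. Per the file headers, the authors deposited FPKM values per NCBI Gene number, written to 2 decimals. Bowtie2 2.2.5 and RSEM were used, per the submitters' processing notes, with no role given; the genome build and annotation are not given in the sources used here. A gene absent from a library's list was taken as 0. Of 17723 gene numbers, 17668 matched a RefSeq symbol. Members and gene lists were chosen with earlier results of these data known.

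Log2 ratios were taken after adding 1 FPKM, and shares over all genes used those whose higher value was 5 FPKM or more. The depth of 8700000 to 8900000 fragments was read from the value of 1 fragment in microRNA genes of 55 to 100 nt. With it, 90.3 to 93.9% of those values of up to 6 fragments came out within 0.1 of a whole number. Depth and a length offset of 35 nt were chosen to make this share highest, so the share is no separate check. The same offset was taken off the coding length in the intervals. The 95% counting intervals combine this depth with coding length from GENCODE, which is shorter than the transcript, so they are wide rather than narrow; over all genes a 0 entered them as 1 fragment. FPKM is no count, so no count test was run.

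For all genes, limma 3.58.1 (R 4.3.3) was fitted with a mean-variance trend to all 4 libraries, subset and spleen as additive terms, with 1 residual degree of freedom and calls at a Benjamini-Hochberg adjusted p below 0.05 (two-sided). It takes the subset effect to be alike in both spleens. Its p-values rest on the departure from that, moderated across genes, and measure no spread between replicate libraries or mice. Nothing says how many mice each library holds. The procedure was tested on simulated data. No p-value is given for the members. Named pathway genes are, in each list, the limma calls up to 4 and the gene with the highest mean level, of which some are not reported here. Alternatives were other pseudocounts, floors and thresholds, size factors, no trend and protein-coding genes alone. Tables were handled with pandas 2.3.3 in Python 3.11.15.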

Additional observations from a re-analysis of the deposited data

How the results depend on the processing

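With 1 library per group, no library could be left out. The counting interval of a ratio covers the counting of fragments alone, and the spread between animals was not measured. No pairing by replicate was possible, because each group holds 1 library and the groups share a single replicate number, so replicates could not form a block. The additive limma fit already compares the subsets within each spleen. All 120 alternative ratios of the 10 members (pseudocounts of 0.1 and 5 FPKM, size factors) kept their sign and moved by less than their counting interval. All 12 medians kept their sign and moved by 0.016 or less on the log2 scale, and 0 members were called 2-fold under any pseudocount, size factor or the threshold of 0.5. Size factors moved the median of all genes by 0.02 or less on the log2 scale. The cause of the changes below was not tested unless the setting itself sets it.

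The number of genes 2-fold apart was 361 for the subsets in AML spleen, 468 for the subsets in normal spleen, 57 for AML in DNAM-1+ cells and 52 for AML in DNAM-1- cells. In the same order it was 201, 286, 36 and 29 with 5 FPKM added, 786, 1018, 286 and 211 at an absolute log2 ratio of 0.5, and 613, 810, 210 and 192 with a floor of 1 FPKM or none. With protein-coding genes alone it was 14 for AML in DNAM-1+ cells and 19 in DNAM-1- cells.

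limma called 667 genes higher and 760 lower in DNAM-1+ cells, and 6 higher and 26 lower in AML. With no trend it called 321 higher in DNAM-1+ cells, and 1 higher and 4 lower in AML. With 5 FPKM added 17 were lower in AML, and with a floor of 1 FPKM 5 were. With no floor it called 0 in either term and direction, against 1576 higher and 1849 lower by subset and 552 higher and 717 lower by spleen at an unadjusted p under 0.05. With protein-coding genes alone, 26 were higher and 81 lower in AML. Of the other pathway genes, the 9 higher calls in DNAM-1+ cells became 2 with no trend, 5 with a floor of 1 FPKM and 0 with no floor, the 8 lower calls became 0 with no floor, and 1 gene, Acaa1a, was called higher in AML with protein-coding genes alone. With a floor of 1 FPKM the calls lost included Fasn, Elovl6, Idh3a and Slc2a3.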
